A study of Mus musculus with 4 samples.

Results

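The peaks described here are the CTCF peaks on the distal part of mouse chromosome 5, chosen by position alone: every peak of the list on chromosome 5 with its midpoint at 108000000 or beyond (build mm9). There were 921 such peaks among 15109 in all, and 365 peaks lay on chromosome 5 below that border. CTCF occupancy was measured by chromatin immunoprecipitation and sequencing in hippocampus of C57/Bl mice. The labels name 2 immunoprecipitated libraries, for which an antibody to CTCF was used, and 2 input libraries of chromatin that was not immunoprecipitated, and they give no treatment, genotype, age or sex. The design text speaks of replicates of mice and of a single input, which differs from the 2 inputs in the labels. One peak list was made from these 4 libraries together. No value per library and no read depth were used here, so the values have no replicate error, none was tested, and the intervals given cover counting error only.

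CTCF reads a long, oriented DNA motif with its row of zinc fingers. It halts the cohesin ring as it moves along chromatin, so that loops and the borders of chromatin domains tend to lie where CTCF is bound. It is found at many promoters and at boundaries between active and silent chromatin, and in neurons it is known for its part in gene choice, memory and synaptic function. The end of mouse chromosome 5 away from the centromere is rich in genes. Well-known genes there, in their order along the chromosome in RefSeq (GRCm38.p6), include Cit, a kinase of cell division, and Nos1, the neuronal nitric oxide synthase. Next come Tbx3 and Tbx5, transcription factors of limb and heart development, and then P2rx7, an ATP-gated ion channel, and Camkk2, a calcium-dependent kinase. Auts2, a very long gene active in developing neurons, lies beyond these. Gtf2i, Limk1 and Eln belong to the segment whose human counterpart is deleted in Williams syndrome. Farther out lie Cux1, a homeobox factor of upper-layer neurons, Ache, which makes acetylcholinesterase, Epo, which makes erythropoietin, Mafk, a small Maf transcription factor, Lfng, a modifier of Notch, and Actb, which makes beta-actin. Wasf3, an actin regulator, the homeobox genes Pdx1 and Cdx2, Flt1, a receptor for vascular growth factor, and Brca2, a DNA repair gene, come last. Since that order is on another build than the peaks, no peak or window below was set to a gene, and no sequence of a peak was used.

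The distal part of chromosome 5 was far more densely filled with CTCF peaks than the rest of the chromosome. Its 921 peaks lay over 44.454 Mb, from the border to the end of the last peak at 152453956, which is 20.7 peaks per Mb (95% Poisson interval 19.4 to 22.1). Below the border, 365 peaks over 104.456 Mb gave 3.49 per Mb (3.14 to 3.87). The ratio of the 2 densities was 5.93 (exact conditional 95% interval 5.25 to 6.71). The 18 other autosomes together held 6.12 peaks per Mb, so the distal part held more than these, and the part below the border fewer. With 1.75% of the chromosome spans of the whole list, the distal part held 6.10% of its peaks. Peaks of high and of low score were both denser there. Strong peaks, here those with an authors' score of 163 or more (the upper quartile of the list), numbered 211 or 4.75 per Mb, against 68 or 0.651 per Mb below the border, a ratio of 7.29 (5.52 to 9.73). For peaks under the list's median score of 93, the ratio was 5.76 (4.86 to 6.85). The intervals of these 2 score classes overlapped, which does not show that their ratios were equal. Peaks cluster along the chromosome and are not independent, so these intervals are too narrow by an unknown amount.

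The border fell in a thinly filled stretch. The last peaks below it were at 107042284 to 107042705, with a score of 76, and at 107231141 to 107232510, with a score of 1042. The first ones beyond it were at 108073117 to 108073500, with a score of 62, and at 108430900 to 108431454, with a score of 83. None of these 4 had another peak within 100 kb.

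Within the distal part, CTCF peaks were unevenly spread, with dense blocks, windows of middling count and a few sparse stretches. Over its 44 full windows of 1 Mb, counts ran from 1 to 52 with a median of 20.5 and a mean of 20.9 ± 13.5 (SD over windows). Below the border, 104 such windows had a median of 1 and a highest count of 31, and 39 of them held no peak. No full distal window was empty. A window with 20 or more peaks is called dense. There were 23 dense windows in the distal part, or 52.3%, against 3 below the border and 9.27% of the 2525 windows of all chromosomes. The 23 dense windows held 723 of the 921 peaks. The 3 below the border began at 33000001, 35000001 and 36000001 and held 22, 27 and 31 peaks.

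**Figure D1:**
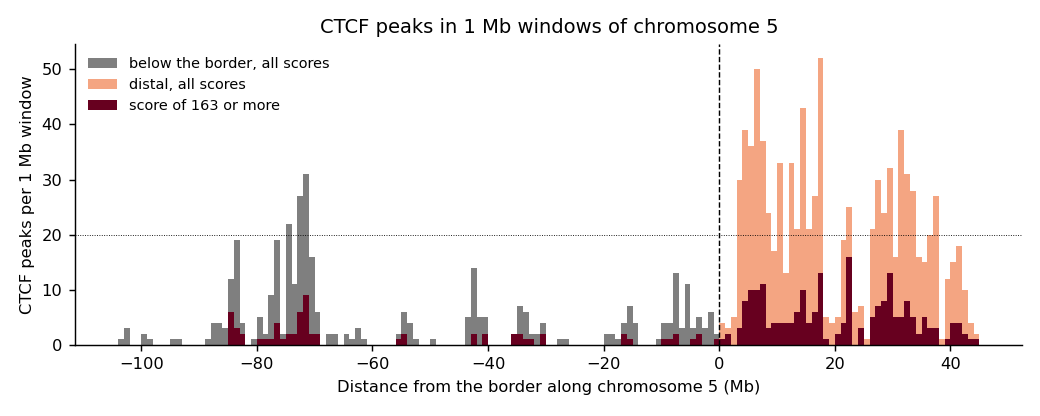
CTCF peaks per 1 Mb window along chromosome 5, against the distance from the border in Mb (dashed line at 0); orange and grey bars count all peaks beyond and below the border, dark bars count those scoring 163 or more, and the dotted line marks 20 peaks. Distal windows reach 52 peaks and vary widely, whereas 39 of the 104 windows below the border hold none.

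The fullest distal window, from 125000001 to 126000000, held 52 peaks, 13 of them strong. The window from 114000001 to 115000000 followed with 50, 10 of them strong, and that from 122000001 to 123000000 with 43, also with 10 strong ones. Among all 2525 windows of the list these 3 ranked 9th, 13th and 24th by count. Windows from 112000001 and from 139000001 held 39 peaks each. The first had 8 strong peaks and the second 5. The window from 115000001 held 37 peaks with 11 strong ones, and that from 113000001 held 36 with 10. Of the 3 windows with 33 or 32 peaks, the one from 137000001 had 13 strong peaks among 32, while those from 118000001 and 120000001 had 4 among 33 each. Windows of similar count thus differed in how many of their peaks scored high. The share of strong peaks was 40.6% in the first of these and 12.1% in each of the others. In the fuller windows above it ran from 12.8% to 29.7%, beside 25.4% of the list. The contrast was picked after the values had been seen and was not tested. The 8 fullest windows, taking 1 of the 2 with 33 peaks, held 35.8% of the peaks in full windows.

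Adjacent dense windows formed 5 blocks of at least 2 Mb, and 2 dense windows stood alone. The first block, from 111000001 to 117000000, held 216 peaks over 6 Mb, or 36 per Mb, and its strongest peak scored 2301. The next, from 120000001 to 126000000, held 197 peaks over 6 Mb, or 32.8 per Mb, with a top score of 1697. Between them stood the dense window from 118000001, with 33 peaks and no score above 359. Past windows with 5, 4, 5 and 19 peaks lay the lone dense window from 130000001, with 25 peaks, and then a block from 134000001 to 138000000 with 107 peaks, or 26.8 per Mb, and a top score of 1276. The block from 139000001 to 142000000 had 98 peaks, or 32.7 per Mb, and none above 687. The last, from 144000001 to 146000000, had 47 peaks, or 23.5 per Mb, and none above 203. Over these 5 blocks the top scores fell in the same order as the counts, whereas the lone windows, with top scores of 359 among 33 peaks and 1348 among 25, broke that order. A top score depends on how many peaks a block holds, so that order does not compare the scores themselves. The median scores of the 5 blocks, 90, 96, 89, 92.5 and 76, did not follow it.

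The share of strong peaks was near that of the list in most blocks, and much higher in one short stretch. Over the whole list 25.4% of peaks scored 163 or more, and over the distal part 211 of 921 did, or 22.9% (exact binomial 95% interval 20.2 to 25.8). The blocks from 111000001, 120000001 and 139000001 had 20.8%, 21.8% and 18.4%, and the block from 134000001 had 30.8% (22.3 to 40.5). In the dense window from 130000001, 16 of 25 peaks were strong, which is 64.0% (42.5 to 82.0), and the median score was 201. The lowest shares among the blocks were 12.1% (3.40 to 28.2) in the window from 118000001 and 12.8% (4.83 to 25.7) in the block from 144000001, both with intervals that include the share of the list. The window from 130000001 was singled out after its values had been seen, and the difference was not tested.

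**Figure D2:**
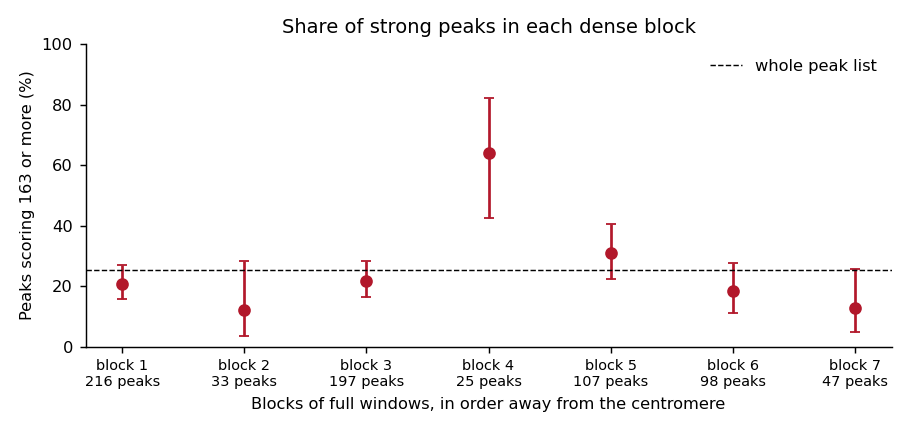
Share of peaks scoring 163 or more, in percent, in each of the 7 blocks of dense windows of distal chromosome 5, in order away from the centromere; points are shares, bars are exact binomial 95% intervals, and the dashed line is the 25.4% of the whole list. The fourth block, the single window from 130000001, stands at 64.0%, and the others lie between 12.1% and 30.8%.

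That stretch carried a row of strong peaks at short and at middle distances. Its strongest, at 130091778 to 130092486, scored 1348, and 8 other peaks lay within 50 kb of it. On one side a peak scoring 182 lay 2.32 kb away, at 130089627. On the other side, peaks followed at 130096796 with a score of 213, at 130101133 with 319, at 130104348 with 86 and at 130107689 with 235. After a gap of over 100 kb came peaks at 130221036 with a score of 880, at 130230632 with 222, at 130284742 with 630, at 130322545 with 470 and at 130371420 with 387, every one of them above the upper quartile. A further group held a peak at 130730951 with a score of 579 and one at 130732667 with 286, 1.75 kb from each other by midpoint. The other members of the window had scores from 49 to 218. The 25 peaks were 344 to 844 bp wide.

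The 2 most crowded stretches of 100 kb had no peak above a score of 225. These were chosen by their counts. From 125500001 to 125600000 there were 17 peaks spread over 78.5 kb, with scores from 43 to 225, a median score of 102 and 4 strong members, or 23.5%, near the 25.4% of the list. The highest of these was at 125586069 to 125586963, with 895 bp of width and a score of 225. From 120600001 to 120700000 there were 13 peaks over 81.9 kb, with scores from 43 to 133 and no strong member. The next stretches by count reached higher scores. The one from 114200001 held 12 peaks with a top score of 484. Those from 113500001, 118400001, 125700001 and 141100001 held 10 each, with top scores of 1191, 245, 840 and 263. Of the 445 stretches of 100 kb in the distal part, 66 held 5 or more peaks and together 49.0% of all distal peaks, and 156 held none.

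The sparsest ground lay at both ends and in the middle. The windows from 133000001 and from 146000001 held 1 peak each, with scores of 95 and 96. The 3 windows from 126000001 to 129000000 held 5, 4 and 5 peaks. The longest stretch without a peak ran from 109107089 to 110530541 and measured 1.42 Mb, bounded by a strong peak with a score of 580 on one side and one with a score of 95 on the other. Others ran from 150560069 to 151680167 (1.12 Mb), from 132329539 to 133405594 (1.08 Mb), from 146020684 to 147021987 (1.001 Mb) and from 133406042 to 134368430 (0.962 Mb). The stretches from 132329539 and from 133406042 were parted by a single peak with a score of 95. Stretches over 500 kb numbered 9 and took up 18.7% of the distal part, against 43 and 69.7% below the border, where the longest measured 7.38 Mb. Without read depth, an empty stretch does not show that CTCF was not bound there.

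The strongest distal peak lay near the end of the chromosome, at 149817570 to 149819125, scoring 2395 over a width of 1556 bp. By score it was number 27 of the whole list. A strong companion with a score of 724 lay 11.8 kb away, at 149806026. The second, at 113482847 to 113484142, scored 2301 and was 1296 bp wide. It stood 25.5 kb from the distal peak ranked 11th, at 113508365 to 113509650, with a score of 1191. The third, at 119231024 to 119232440, scored 2130. Its nearest peak was 19.05 kb away and scored 184. The 1 Mb window around it held 13 peaks, 5 of which lay within 50 kb of it.

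Further down, the peak at 115574713 to 115576001 scored 1774 and that at 120552097 to 120553506 scored 1697, with their nearest peaks 26.8 and 33.7 kb away. The sixth, at 148038438 to 148039630, scored 1460 and had 1 other peak within 50 kb. It was followed by the peak at 130091778 with a score of 1348, described above, by 137098749 to 137099719 with 1276 and by 122540616 to 122541719 with 1233. The tenth, at 120162706 to 120163417, scored 1216 and had a single neighbour within 100 kb, 26.7 kb away with a score of 228. The peak at 136282470 to 136283071 scored 1159 with a width of only 602 bp. Scores of 1131, 1029 and 1001 belonged to the peaks at 143638937 to 143639563, at 134967544 to 134968673 and at 137357109 to 137357959. These 15 peaks took ranks 27 to 261 of the list, and 11 of them lay in dense windows, which held 723 of the 921 distal peaks. Below the border, 4 of 365 peaks reached the score of the 15th, with a highest value of 1435. The distal part had 15 such peaks among 921, and the lowest of them ranked 261 among the 15109 of the list. The parts differ in their number of peaks, so these counts alone do not show a higher share of such scores in the distal part.

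**Figure D3:**
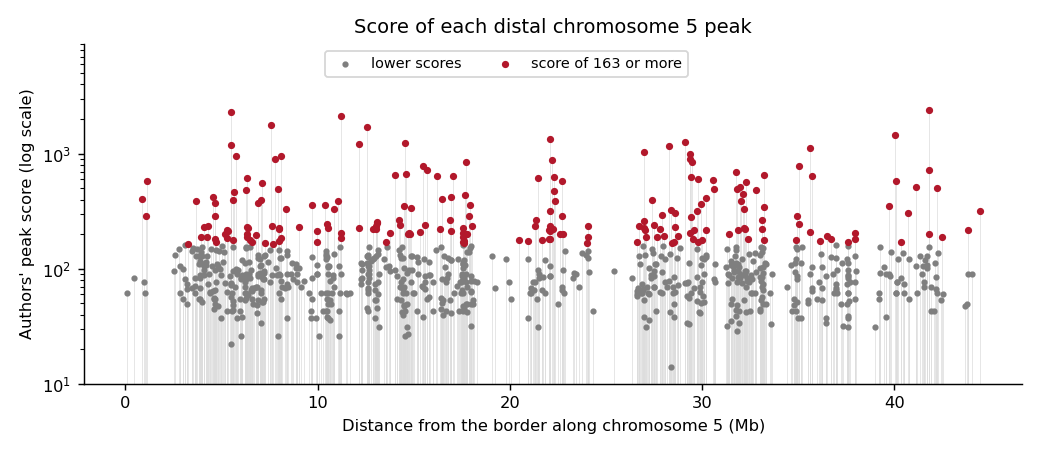
Authors' score of each of the 921 distal chromosome 5 peaks (log scale) against the distance from the border in Mb; red points score 163 or more, grey points less, and thin lines join each point to the axis. High scores are spread along the whole distal part, and the highest, 2395, lies near its far end.

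The nearest neighbours of the strongest peaks ranged from weak to strong. For 9 of the 15 the nearest peak was less than 10 kb away, beside 54.9% of all distal peaks with one within 10 kb. The median score of the nearest neighbour over all 15 was 76. The peak with a score of 2301 had its nearest neighbour 1.18 kb away with a score of 22, and that with 1233 had one 1.92 kb away with a score of 26. Both neighbours are among the low scores of the list, whose lower quartile was 62. In 5 of the 15, or 33.3%, the nearest neighbour was itself strong, beside 25.4% of all peaks in the list and 22.9% of the distal ones. At a distance of up to 50 kb, 10 of these 15 had another strong peak. For all 211 strong distal peaks, the nearest other strong one lay 37.8 kb away in the median, so most had one within 50 kb too. Among the 10, the peak with 1029 had a strong neighbour scoring 225 at 1.95 kb, and the peak with 1131 had one scoring 210 at 1.13 kb. Whether weak neighbours at such distances are separate sites or parts of 1 enriched region split by the peak caller was not tested.

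**Figure D4:**
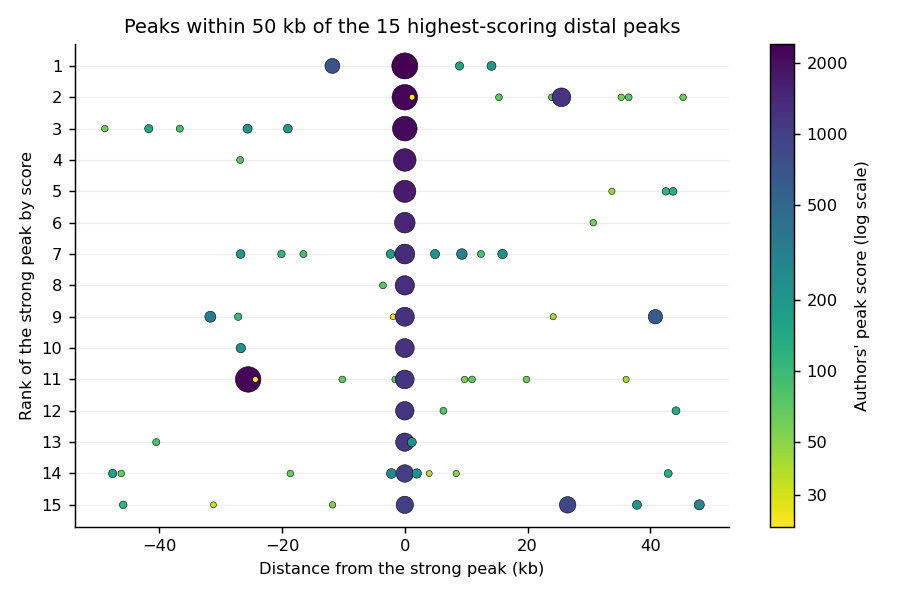
Peaks within 50 kb of each of the 15 highest-scoring distal peaks, 1 row per strong peak in order of score, against the distance from its midpoint in kb; colour (log scale) and size give the authors' score, and the strong peak itself is at 0. Neighbours range from a score of 22 upward, and rows 1, 2, 11 and 15 show a companion scoring 724 or more.

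Very strong peaks also came in a chain. In the distal part, 61 peaks had a score of 400 or more, a limit set after the list had been seen, which is 6.62% (exact binomial 95% interval 5.10 to 8.43), against 8.16% of the list as a whole, a value inside that interval. In the window from 137000001, 6 of them followed one another between 137098749 and 137775349, which was noticed after the values had been seen. They were at 137098749 with a score of 1276, at 137357109 with 1001, at 137383735 with 904, at 137437602 with 630, at 137500849 with 846 and at 137774526 with 599. From the one at 137357109 to the one at 137500849, neighbours were 26.5, 53.9 and 63.3 kb apart by midpoint. The first and the last of the 6 stood farther off, 258 and 274 kb from the nearest of the others. Over all strong distal peaks, the distance from one to the next had a median of 80.7 kb (interquartile range 26.9 to 241), against 340 kb below the border.

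Distal peaks differed little in score and width from those below the border. The median score was 90 in both, with order-statistic 95% intervals of 90 to 97 beyond and 83 to 99 below the border. The upper quartiles were 154 and 140. The share of strong peaks, 22.9% (20.2 to 25.8), was above the 18.6% (14.8 to 23.0) below the border, with overlapping intervals, and both were under the 25.4% of the list. The median width was 474 bp (462 to 489), with an interquartile range of 399 to 604, and 477 bp (460 to 497) below the border. More than 1 kb was reached by 55 distal peaks, or 5.97% (4.53 to 7.70), and by 13 below the border, or 3.56% (1.91 to 6.01). The narrowest width in the list, 344 bp, was shared by 34 distal peaks, or 3.69% (2.57 to 5.12). That is near the 3.76% of the list, and below the border the share was 3.01% (1.51 to 5.33). The intervals overlapped in each of these measures, which does not show that the values were equal.

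Width and score went together in the distal part as they did in the list as a whole, with clear exceptions among the widest peaks. Across the 921 peaks Spearman's rho was 0.57, a description over peaks that share their libraries. It was 0.54 below the border and 0.59 in the whole list. Median widths were 418 bp below the list's median score, 507 bp from there to the upper quartile and 640 bp above it, and 45 of the 55 peaks wider than 1 kb were strong. The widest, at 125747320 to 125750700, measured 3381 bp and scored 840. In contrast, the peak at 118454487 to 118456567 was 2081 bp wide and scored 143, and that at 125994537 to 125996194 was 1658 bp wide and scored only 63. Peaks at 117954353 to 117956424 and at 121070197 to 121072017 were 2072 and 1821 bp wide, with scores of 172 and 249. Among the 15 strongest, widths ran from 602 to 1556 bp, so the greatest width and the greatest score did not fall on the same peaks.

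Distal peaks lay closer to each other than peaks below the border. The nearest other peak was 8.34 kb away in the median (order-statistic 95% interval 7.06 to 9.50), against 28.2 kb (19.8 to 34.1) below the border. Within 10 kb of 506 distal peaks there was another, or 54.9% (51.7 to 58.2), against 29.6% (24.95 to 34.6) below the border and 42.9% of the list. These intervals did not overlap. A denser set of peaks has closer neighbours even if it is laid out in the same way, so spacing is not separate from density. Inside the distal part, 60.6% of peaks in dense windows had such a neighbour and 34.3% of the others, while the median scores of these 2 sets were 90 and 91. Over the 44 full windows, the rank correlation of peak count and median score was -0.05, which is a description of windows cut from 1 list. The share with a close neighbour was 56.9% (49.9 to 63.7) among strong peaks, 47.1% (40.7 to 53.6) among those from the list's median score to its upper quartile and 58.1% (53.5 to 62.6) among those under the median score.

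**Figure D5:**
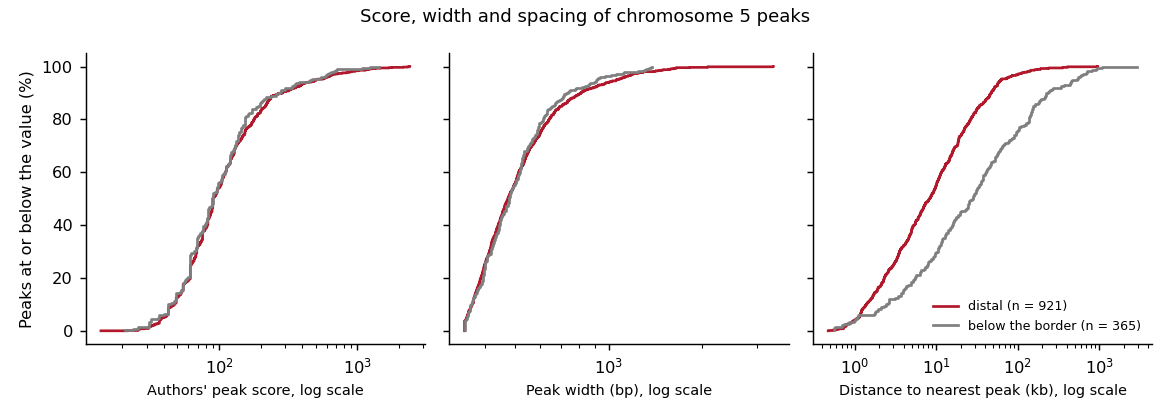
Cumulative share of peaks, in percent, by authors' score, width in bp and distance to the nearest peak in kb (all on log scales), for the 921 distal peaks (red) and the 365 below the border (grey) of chromosome 5. The curves for score and width nearly coincide, with medians of 90 and 90 and of 474 and 477 bp, while those for distance part, with medians of 8.34 and 28.2 kb.

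Some distal peaks lay almost side by side. Joining peaks with under 1 kb between them turned 921 peaks into 860 regions, 56 of which were runs of more than 1 peak. These runs took in 117 peaks, or 12.7% (10.6 to 15.03), against 6.03% (3.82 to 8.98) below the border and 11.6% of the list. Measured between midpoints, the closest spacing was not more common in the distal part. Another midpoint lay within 1 kb of 3.91% (2.75 to 5.37) of distal peaks. Below the border this share was 4.38% (2.53 to 7.02), and in the list 5.23%. There were 52 runs of 2, 3 of 3 and 1 of 4 peaks. A strong peak was present in 24 of the 56 runs, or 42.9%, close to the 41.7% of all 830 runs of the list. None of the 11 runs below the border, of 2 peaks each, held one. In the pairs, the higher score was 2.25 times the lower in the median (interquartile range 1.34 to 3.93), and 16 of 52 pairs had scores within 1.5 times of each other. Most pairs were thus unequal by this limit. Pairs of peaks lying apart were not compared, and distal scores as a whole were spread, with quartiles of 63 and 154.

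The longest run, from 125747320 to 125752926, was also the longest in the list, at 5.61 kb. It began with the widest distal peak, scoring 840, and went on with 3 weak ones scoring 42, 69 and 49, with 116 to 312 bp between neighbours. A run from 134965139 to 134970646 measured 5.51 kb and differed in that all 3 of its peaks were strong, with scores of 260, 1029 and 225 and widths of 1574, 1130 and 1181 bp. From 114293008 to 114296033, a peak scoring 484 stood between peaks scoring 56 and 155. The run from 118642784 to 118644729 held only weak members, with scores of 36, 79 and 54 and widths of 424, 385 and 393 bp. Runs with 2 or more strong members numbered 6 of 56 in the distal part, beside 60 of 830 in the list and 0 of 11 below the border. The pair at 143638937 and 143640123, with scores of 1131 and 210, was among the 6.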

How the data were processed

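The authors deposited 1 peak list for 2 CTCF ChIP and 2 input libraries of mouse hippocampus together. Per the file header it is a narrowPeak track on mm9 whose name joins both ChIP and both input libraries. Per the submitters' processing notes, cutadapt, MACS2 2.0.10.20131216 and mm9 were used. Not given in the sources used here are the aligner, the calling threshold and how duplicate reads were treated. Each peak has an interval and a whole-number score deposited by the authors, whose scaling is not stated, so the score only ranked and filtered peaks inside this list.

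Starts were converted to positions counted from 1. Densities have exact Poisson intervals, ratios exact conditional ones, shares exact binomial (Clopper-Pearson) ones and medians order-statistic ones, at 95% (Python 3.11.15, scipy 1.17.1). Spans run from first to last peak. Peaks under 1 kb apart were joined into runs, and nearest distances use midpoints and any peak of chromosome 5. Counting was tested on simulated peaks. Peaks named were the 15 strongest, the 5 widest and 2 on each side of the border, with the 8 fullest windows, each run of 3 or more, dense blocks and the 5 longest empty stretches. Other peaks named were chosen after their values were seen. The members, lists and alternatives (score, joining, border, distance, window offset, gap) were chosen with earlier results of these data known. Sequence and annotation of mm9 were not used here, so the planned descriptions of promoters, genes and the CTCF motif were not run.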

Additional observations from a re-analysis of the deposited data

How the results depend on the processing

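Of 47 alternative values, 25 stayed within the interval of the value reported, or for counts within 1.5 times of it, and 22 did not. Moving the border by 2 Mb either way left all 8 results it was applied to in that range. The density of distal peaks fell from 20.7 to 10.19 and 4.75 per Mb when only scores at or above the list's median or upper quartile were kept, which follows from the filter, and 19.3 with runs joined. The ratio to the part below the border was 7.29 for the upper quartile. The share with a neighbour within 10 kb was 32.7% and 22.3% under the 2 score filters and 49.4% after joining, and within 5 kb and 50 kb it was 37.8% and 90.9%. The median nearest distance was 21.2, 37.8 and 10.17 kb under the same 3 settings. The median width was 549 and 640 bp, the fullest window held 25 and 16 peaks, dense windows numbered 5 and 0, and runs numbered 12 and 6 under the 2 score filters. With 500 bp or 2 kb as the gap, there were 25 or 94 runs. Below the border the share with a close neighbour was 12.1%, 8.82% and 25.4% under the score filters and joining, under the distal share each time. No paired analysis was possible because single libraries have no values here, and leaving out a library was not run for the same reason. With depth unknown, the number of reads under a weak peak cannot be given.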

Other observations

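A stretch of the same length, 44.454 Mb back from the last peak, was taken on each of the 19 autosomes, a choice made after the list had been seen. Chromosome 4 held the most peaks in it, 947 or 21.3 per Mb (95% Poisson interval 19.97 to 22.7), and chromosome 5 followed with 921 or 20.7 per Mb. Chromosome 11 had 863 or 19.4 per Mb (18.1 to 20.8), and chromosome 15 came next with 13.5 per Mb. The median over the 19 was 6.32 per Mb and the lowest value was 1.37, on chromosome 14. Strong peaks made up 21.1% (18.6 to 23.9) of this stretch on chromosome 4, 22.9% (20.2 to 25.8) on chromosome 5 and 28.3% (25.3 to 31.4) on chromosome 11. Another peak lay within 10 kb of 58.3%, 54.9% and 56.5% of the peaks, in the same order. These differences were not tested.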
